A study of Mus musculus with 9 samples.

Results

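The 3 arrays of cells transduced with the empty vector describe cultured mouse blood progenitors after fluorouracil, with no transcription factor added. They were the 3 arrays of the control group, identified by their titles, out of 9 in the series. The other 6 arrays carried GATA2 vectors and were not used here. All cells came from female C57BL/6 mice aged 8 weeks that had received 5-fluorouracil (5-FU) at 150 mg/kg 6 days before their marrow was taken. Lineage-negative cells with the surface markers Sca and Kit were enriched on a magnetic column, infected with retrovirus on 2 consecutive days and sorted for green fluorescent protein after 72 h of culture. The vector, called MIE, carried green fluorescent protein (EGFP) and no added transcription factor, and the labels give the genotype as control, the tissue as blood and the cell type as HSC (hematopoietic stem cell). So every cell measured had also been through 5-FU, viral infection and culture, and no uncultured or uninfected cells were analysed here. The labels do not say if the 3 samples are separate animals or separate cultures, so the spread between them may be technical, and their number limits the precision.

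Stem and progenitor cells of the marrow carry Kit, the receptor for stem cell factor, and give rise to neutrophils, monocytes, mast cells, basophils, platelets, red cells and lymphocytes. 5-FU kills dividing cells, and the surviving progenitors then divide to refill the marrow. In culture with growth factors, such progenitors soon begin to mature, and maturing neutrophils make their granule proteins in a set order, with myeloperoxidase and elastase in the primary granules first, then lactoferrin and cathelicidin in the secondary granules. Interferon, an alarm signal of infected cells, switches on a large set of antiviral genes in almost any cell type that carries its receptor.

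Signal was given as a log2 value for each of 21072 transcript clusters, where a cluster combines the probes that target 1 gene or locus. The values had been processed by robust multiarray average (RMA), which corrects background, normalizes between arrays and sums probes, and which compresses differences at low signal. A measured background was not part of the table. In its place, 1276 clusters of smell and taste receptor genes served as a reference, picked by symbols that start with Olfr, Vmn1r, Vmn2r, Tas2r or Taar. These genes are not known to be used by blood cells. Their median mean signal was 4.30 and their 95th percentile 5.40, and a cluster at or below 5.40 is called near background here. A cluster in the top 10% by mean signal, above 11.42, is called high, and the rest are called middle. Clusters use different probes, so a gene is placed within the range of the arrays, and levels of different genes are not compared as amounts of RNA. With 1 group there is no comparison of groups and no p-value. A cluster was said to vary when its highest and lowest array differed by more than 1 on the log2 scale, that is, by over 2-fold.

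Of the 21072 clusters, 2108 were high (the top 10%, by construction), 9991 (47.4%) were middle and 8973 (42.6%) were near background. The means nearest the thresholds were 5.40243 and 5.40296 at the lower level, and 11.4178 and 11.4192 at the upper level. Together 12099 clusters (57.4%) lay above the reference level, and 11623 did so on each array against that array's own level. The medians of the 3 arrays were 6.18, 6.10 and 6.13, and Pearson correlations across clusters, which are not independent, were 0.990 to 0.992. The reference family itself was not uniformly dark, since 64 of its 1276 clusters lay above the level by construction, the brightest at 9.40. Xist, the long RNA of the inactive X chromosome, was high on the 3 arrays of these female cells, and the Y-linked genes Eif2s3y, Uty and Kdm5d were near background on each.

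**Figure D1:**
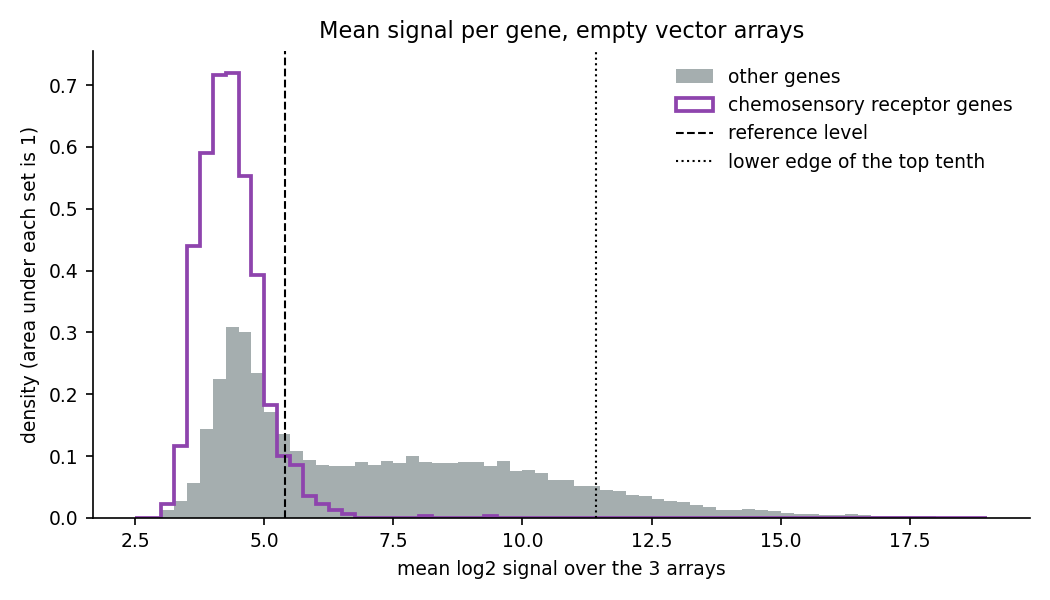
Mean log2 signal over the 3 arrays (x axis) for receptor genes with symbols starting with Olfr, Tas2r or Taar (outline) and all other genes (grey bars). Each set is a density with an area of 1. Dashed and dotted lines mark the reference level of 5.40 and the lower edge of the top 10% at 11.42; the receptor genes pile up below the dashed line.

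Between the 3 arrays, 1183 of the 21072 clusters (5.61%) varied, 226 spanned over 4-fold and 84 over 8-fold. The largest range below and the smallest above the threshold were 0.999968 and 1.00006. Varying clusters made up 7.73% of the high, 9.68% of the middle and 0.591% of the near-background class, so they were rare near background. Among all clusters, 2.45% varied with array 1 highest, 1.10% with array 2 highest and 2.02% with array 3 highest, and 0.660%, 2.85% and 2.05% varied with array 1, 2 and 3 lowest. An array stood apart when it differed from both others by more than they differed from each other. Counting only clusters that varied, array 1 stood apart above in 1.38% and below in 0.209% of all clusters, array 2 in 0.489% and 1.39%, and array 3 in 1.13% and 1.03%. Array 2 was thus the lowest more often than the others. Between pairs of arrays, 560 clusters differed by over 2-fold between arrays 1 and 2, 592 between arrays 1 and 3 and 705 between arrays 2 and 3.

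The brightest clusters belonged to protein folding, translation and mitochondria. The single brightest was Hspa8, the constitutive heat shock chaperone, with log2 signals of 18.57, 18.60 and 18.63 on arrays 1, 2 and 3. Hspa8 held 4 of the 20 brightest clusters with 1 gene symbol, at different loci, so its signal cannot be told from that of near-identical copies. Another 10 of the 20 bore names of ribosomal protein pseudogenes, as did 83 of the 200 brightest, and the probes of such copies cannot be told from those of the parent genes. The elongation factor Eef1a1 stood at 17.84, 17.84 and 17.72, and the mitochondrial gene COX1 at 17.91, 18.09 and 17.88. Myeloperoxidase (Mpo), a primary granule enzyme, reached 17.61, 17.49 and 17.46 (mean 17.52 ± 0.08, SD, n = 3), at percentile 99.8 of all clusters.

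Genes were then read in 32 lists with 820 entries, covering 775 genes, of which 669 had a cluster of their own. Another 54 shared a cluster with another gene and 52 had no cluster, among them Ly6a, which encodes Sca-1 and is therefore not given here. Of the 669 measured, 557 lay above the reference level. A list is described by how many members fell in each class and by its median percentile among all clusters, where 50 is the middle of the arrays.

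**Figure D2:**
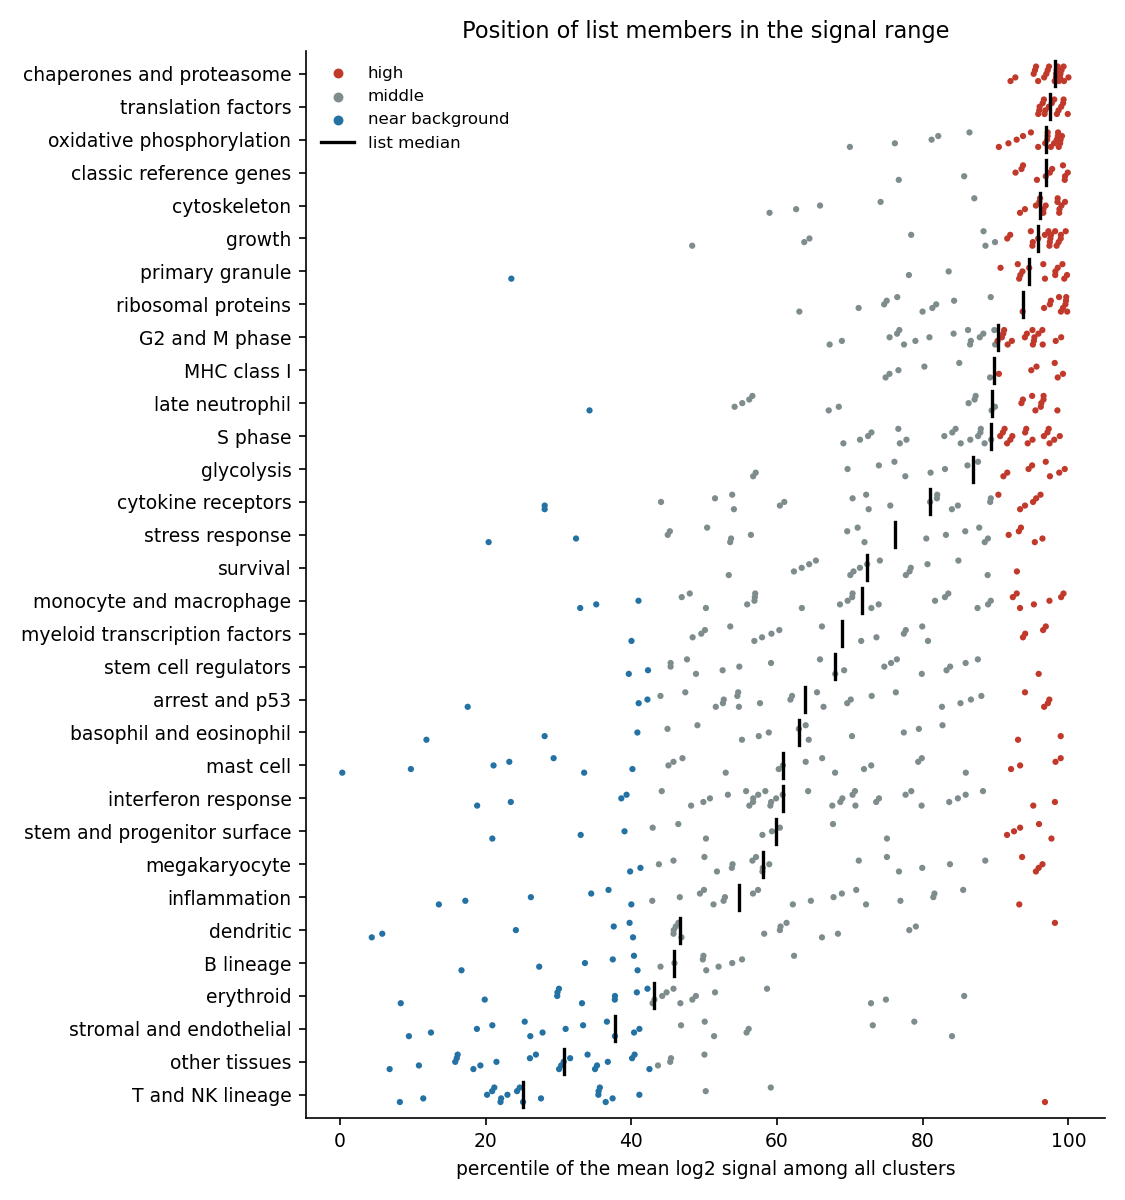
Percentile of the mean log2 signal among all 21072 clusters (x axis) for the measured members of each list (rows, ordered by list median). Points are genes, coloured by class, and black bars are list medians. Chaperone and proteasome genes lie at the far right with a median of 98.2, and T and NK lineage genes at the far left with a median of 25.1.

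Housekeeping and growth lists sat at the top and held steady. Of 22 chaperone and proteasome genes, 22 were high (median percentile 98.2), against the 10% of all clusters set by the threshold. Of 16 translation factors 16 were high (97.5), of 24 oxidative phosphorylation genes 19 (96.9), of 19 cytoskeleton genes 14 (96.1) and of 25 growth genes 18 (95.9). The ribosomal protein list had 11 of 21 measured members high, while 18 of its 44 entries shared a cluster with another gene. Across these 6 lists the members that varied were Ndufa4, a respiratory chain subunit, at 14.88, 13.86 and 14.90, and the proteasome subunit Psmb3, at 13.60, 12.36 and 12.99, both lowest on array 2. Among genes in common use as assay references, Gapdh read 16.67, 16.66 and 16.75, Actb 16.92, 16.94 and 16.66, and Rplp0 14.14, 14.10 and 14.15. The widest of these ranges was 0.28, for Actb. Tfrc, the transferrin receptor, was the only 1 of 13 such genes more than 2-fold apart, at 10.06, 10.28 and 11.39, highest on array 3. B2m and Pgk1 had the next widest ranges of the 13, without passing 2-fold.

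Genes of growth were high and steady. Npm1, a nucleolar protein of ribosome assembly, read 17.02, 17.07 and 17.02. Myc, the transcription factor that drives ribosome production, read 12.88, 12.83 and 12.55, while its relative Mycn was only just above the reference level at 5.85, 5.96 and 6.05. The cell cycle kinase Cdk6 stood at 14.44, 14.79 and 14.80, its partner cyclin D2 (Ccnd2) at 14.30, 14.30 and 13.78, and cyclin D3 (Ccnd3) lower in the range at 7.89, 7.89 and 7.61. Of 25 growth genes, 0 varied, beside 5.61% of all clusters.

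Genes of DNA replication and mitosis were all above the reference level, 33 of 33 in each list, beside 57.4% of all clusters. Of these, 16 replication and 17 mitosis genes were high. Pcna, the sliding clamp of the replication fork, read 15.35, 15.23 and 15.35, and the helicase subunit Mcm3 14.48, 14.29 and 14.89. Mki67, a marker of cycling cells, read 15.84, 16.11 and 15.01, and the mitotic kinase Plk1 14.83, 14.43 and 14.98. Most of these genes were steady: 1 of 33 replication genes varied (the flap endonuclease Fen1, at 8.44, 7.80 and 9.04) and 2 of 33 mitosis genes (Mki67, lowest on array 3, and the checkpoint kinase Bub1b, at 10.81, 9.996 and 11.23). In either list 0 varied without array 2, and 0 without array 3, while 5.61% of all clusters varied with all 3 arrays. Mitosis genes sat a little lower on array 2, which was the lowest for 24 of 33, beside 7508 of all 21072 clusters. After quantile normalization it was the lowest for 19 of 33, beside 6267 of 21072. Their median difference between arrays 1 and 2 was 0.35, and 0.13 after quantile normalization. For replication genes the same median was 0.05, and -0.14 after quantile normalization.

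Brakes on the cell cycle were mixed. Cdkn1a (p21), a kinase inhibitor and target of p53, was high at 13.91, 13.66 and 14.17, as was Ccng1, another p53 target, at 13.60, 14.18 and 14.43. Other p53 targets were in the middle class, such as Mdm2, the ligase that degrades p53, at 9.80, 10.47 and 10.04. Bbc3 (Puma), which promotes cell death, was in that class too but just above the reference level, at 5.83, 5.86 and 5.86. The Ink4 inhibitor Cdkn2a was just above the reference level at 5.54, 5.51 and 5.52, and Cdkn2b was near background at 4.42, 4.48 and 4.17. Of 28 arrest and p53 genes, 4 were high, 21 middle and 3 near background. Among 17 survival genes 1 was high, the caspase Casp8, and none was near background, with Mcl1, a survival factor of the Bcl2 family, at 10.51, 10.42 and 10.43.

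Of 22 stress genes 5 were high, 15 middle and 2 near background. Phgdh, the first enzyme of serine synthesis, read 13.38, 13.17 and 13.76, and Xbp1, the transcription factor of the unfolded protein response, 13.04, 12.72 and 13.14. The inducible heat shock gene Hspa1a was near background at 4.38, 4.59 and 4.38, and so was Trib3, at 4.84 on each array. Slc7a11, the cystine transporter, varied most in this list, at 8.94, 9.73 and 10.75, highest on array 3.

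Energy genes lay high with a small shared offset as deposited. Of 18 glycolysis genes 8 were high and 10 middle, and none varied by over 2-fold. Array 2 was nevertheless the lowest for 15 of 18 glycolysis genes and 22 of 24 oxidative phosphorylation genes, with median differences between arrays 1 and 2 of 0.50 and 0.33. After quantile normalization these medians were 0.24 and 0.02. Array 2 was then the lowest for 13 of 18 and 10 of 24. Over all 21072 clusters it was the lowest for 7508 as deposited and 6267 after quantile normalization.

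Stem cell regulators were mostly in the middle of the range and steady, with 1 of 21 high, 18 middle and 2 near background. Fli1, an ETS factor of early blood and platelet cells, was the high one at 13.07, 13.19 and 13.27. Runx1, the master regulator of definitive blood, read 11.08, 10.90 and 10.78, Meis1, a homeobox partner of Hox proteins, 9.99, 10.49 and 10.11, and Gata2 itself 9.87, 9.67 and 9.65. Factors tied to long-term stem cells lay from just above the reference level upward. Prdm16 stood at 5.68, 5.68 and 5.62 and Mecom at 5.78, 6.49 and 5.75, while Hlf at 7.33, 7.63 and 6.80, Mllt3 at 8.09, 8.18 and 7.84, and Erg at 9.19, 9.25 and 9.19 lay above the middle of the arrays. In this list, 0 of 21 varied, beside 5.61% of all clusters, and after either rescaling 1 did.

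Surface markers matched the label HSC in part. The sort marker Kit was high on all 3 arrays at 12.22, 12.22 and 12.38, as were the progenitor marker Cd34 at 12.94, 13.24 and 13.46 and the leukocyte marker Ptprc (CD45) at 12.07, 11.99 and 12.02. Cd48, which is low on long-term stem cells and present on committed progenitors, was the brightest of the 16 at 14.23, 13.92 and 14.67. Markers of long-term stem cells were mixed. Procr (EPCR) stood at 5.10, 5.04 and 5.34 and Fgd5 at 4.90, 4.90 and 4.81, both near background, while Slamf1 (CD150) at 7.31, 6.76 and 7.25 and Eng (endoglin) at 8.36, 8.02 and 8.38 were in the middle class. The cells are called cultured progenitors here, by their source and handling. Flt3, the receptor of multipotent and lymphoid-primed progenitors, varied at 7.14, 8.23 and 6.82, highest on array 2, and the stem cell marker Prom1 varied at 7.97, 7.44 and 6.40. These were the 2 of 16 that varied, beside 5.61% of all clusters, and 1 did without array 2 or without array 3.

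Receptors for blood growth factors and chemokines lay at a median percentile of 81.0. Of 25 cytokine receptors, 6 were high, 17 middle and 2 near background. The chemokine receptor Cxcr4, which holds progenitors in the marrow, read 13.18, 13.10 and 13.68, and Il6st (gp130), the shared subunit of the interleukin 6 family, 12.45, 12.12 and 12.86. Csf3r, the receptor for granulocyte growth factor, was steady at 11.46, 11.39 and 10.96, whereas Csf1r, the receptor for macrophage growth factor, spread over 8.93, 7.04 and 9.76. Epor, the erythropoietin receptor, was low at 6.44, 6.00 and 6.53, and Il5ra, the eosinophil growth factor receptor, was near background. The interferon receptor subunits were expressed on each array, Ifnar2 at 13.01, 12.90 and 12.75 and Ifnar1 at 10.56, 9.85 and 10.92.

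Among 20 myeloid transcription factors, 4 were high, 15 middle and 1 near background. Cebpa, which starts the granulocyte and monocyte program, read 13.99, 13.32 and 13.78, and Myb, a factor of dividing progenitors, 12.56, 12.33 and 12.27. Factors of later steps varied: Cebpe, needed for secondary granules, stood at 10.54, 9.36 and 8.39, and Irf8, which guides monocytes and dendritic cells, at 8.70, 6.69 and 8.83. Cebpe was thus lowest on array 3 and Irf8 lowest on array 2. Gfi1, a transcriptional repressor that neutrophil development requires, read 6.37, 5.86 and 5.66, not far above the reference level. In all 6 of the 20 varied, beside 5.61% of all clusters, and 3 of 20 without array 1 or without array 3.

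Primary granule genes were among the highest lineage genes on the arrays. Of 17, 14 were high and 1 near background, with a median percentile of 94.6. After Mpo came Ms4a3, a marker of granulocyte and monocyte progenitors, at 16.75, 16.40 and 16.43, and Elane, neutrophil elastase, at 16.47, 16.25 and 15.44. Ctsg, cathepsin G, read 15.11, 14.51 and 14.45, Prtn3, proteinase 3, 12.51, 12.15 and 12.02, and Cst7, a protease inhibitor, 14.73, 14.68 and 14.71. Bpi, a bactericidal granule protein, was the member near background, at 4.54 on each array.

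Late neutrophil genes were also present, but they separated the arrays. Of 21 measured, 9 were high, 11 middle and 1 near background. Of the 21, 16 varied, beside 5.61% of all clusters, and the median SD was 1.30, beside 0.13 over all clusters. Array 1 was the highest for 14 of these 16 (2.45% of all clusters varied with array 1 highest) and array 3 the lowest for 14 (2.05% with array 3 lowest). Array 3 stood apart below the other two for 10 of them, a pattern met in 1.03% of all clusters.

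Camp, the cathelicidin of secondary granules, spread most of any cluster on the arrays, with log2 signals of 14.33, 11.16 and 6.58, a 216-fold range (mean 10.69 ± 3.90, SD, n = 3). Ngp, a neutrophil granule protein, read 15.69, 15.04 and 9.37 (79.9-fold), and Ltf, lactoferrin, read 13.03, 12.78 and 6.76 (77.2-fold). For Ngp and Ltf, arrays 1 and 2 lay close together and array 3 far below. S100a8 and S100a9, the paired calcium-binding proteins of neutrophil cytoplasm, followed at 16.57, 16.13 and 12.10 and at 15.44, 14.88 and 10.26. Ly6g, the surface marker of neutrophils, read 8.43, 6.82 and 5.58, so it was near the reference level on array 3, and Cd177, another neutrophil surface protein, read 8.01, 7.01 and 5.32. Itgam (CD11b), an integrin of myeloid cells, read 11.67, 10.64 and 10.17.

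Not every gene of the list followed this order. Lyz2, lysozyme, made by monocytes as well as neutrophils, read 13.62, 12.18 and 14.77, highest on array 3. Mmp8, neutrophil collagenase, stood at 13.63, 12.79 and 13.56, and the receptor Clec5a at 12.76, 12.64 and 13.11, and neither varied by over 2-fold. Mmp9, the gelatinase of the latest granules, was near background at 5.26, 5.09 and 4.40. Without array 3, 8 of the 21 genes varied, 12 without array 1 and 15 without array 2.

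In the primary granule list 6 of 17 members varied, beside 5.61% of all clusters. Array 1 was the highest for each of the 6, and 2.45% of all clusters varied with array 1 highest. The lowest was array 2 for 2 of them, Hp and Ctsc, and array 3 for the others. Over the 17, the median difference between arrays 2 and 3 was 0.03, beside 1.10 for the late neutrophil genes. After quantile normalization these medians were 0.24 and 1.22. Array 3 was then the lowest for 12 of the 17, beside 7857 of all 21072 clusters. Fcnb, the lectin ficolin B, had the largest spread, at 12.04, 9.79 and 6.75 (39.2-fold), and Prss57, a granule protease, read 11.02, 10.28 and 9.42. Elane varied, lowest on array 3, while Mpo, with a range of 0.15, did not. Without array 1 or without array 3, 3 of the 17 varied. In sorted cells measured in bulk, fewer cells of a type and less RNA per cell cannot be told apart, here and in the results that follow.

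**Figure D3:**
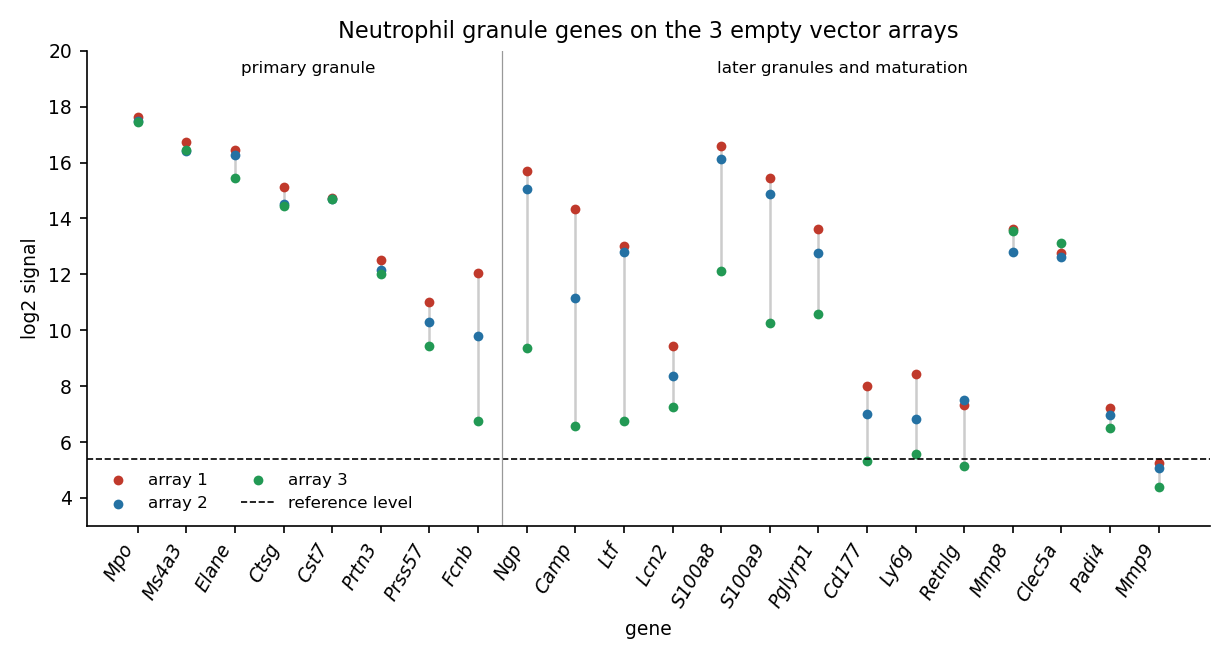
Log2 signal on the 3 arrays (coloured points, y axis) for neutrophil granule genes (x axis), with the reference level as a dashed line. Of the early genes, Mpo and Cst7 have 3 nearly coincident points, while Fcnb spans 12.04 to 6.75. Of the later genes, Camp spans 14.33 to 6.58 and Ltf 13.03 to 6.76, while Clec5a spans only 13.11 to 12.64.

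Monocyte and macrophage genes also varied, with a smaller median SD of 0.69 and with another array lowest. Of 30 measured, 7 were high, 20 middle and 3 near background, and 21 of the 30 varied, beside 5.61% of all clusters. Array 2 was the lowest for 18 of these 21, beside 2.85% of all clusters that varied with array 2 lowest, and the highest was array 1 for 15 (2.45% of all clusters) and array 3 for 6 (2.02%). The median difference over the 30 genes was 1.12 between arrays 1 and 2, 0.18 between arrays 1 and 3 and -0.76 between arrays 2 and 3. Without array 2, 9 of the 30 varied.

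The Fc receptor Fcgr1, a marker of monocytes and macrophages, read 10.81, 6.53 and 8.38, and its relative Fcgr4 8.54, 5.50 and 6.92. The lysosomal proteases Lgmn and Ctss stood at 11.45, 8.27 and 10.21 and at 11.99, 9.72 and 11.91. Array 2 was thus the lowest for each of these 4 genes. Ccr2, the receptor that brings monocytes out of the marrow, read 12.25, 10.41 and 11.19, and Ly6c2, a surface marker of inflammatory monocytes that interferon also raises, 17.28, 16.26 and 15.38. Ly6c2 went another way, lowest on array 3. Markers of tissue macrophages were spread over the range. The complement subunits C1qa and C1qc and Mertk, a receptor for dying cells, were near background on average, while C1qb, the remaining subunit, read 7.12, 5.26 and 5.02. The mannose receptor Mrc1 read 11.14, 10.24 and 11.33, Adgre1 (F4/80) 8.61, 8.13 and 8.75, and the lysosomal protein Cd68, which was high, 12.71, 11.10 and 12.14.

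Of 20 dendritic cell genes 1 was high, 13 were middle and 6 near background, with a median percentile of 46.7, and 14 lay above the reference level, beside 57.4% of all clusters. The high gene was Bst2, which is also an interferon target and is described with those genes. The markers Xcr1, Clec9a and Zbtb46 were near background, and Clec9a, a receptor for dead cells, read 3.85, 3.95 and 3.96. Batf3 at 5.69, 5.68 and 5.71 and Siglech at 5.79, 5.79 and 5.67 were just above the reference level. Tcf4 read 9.49, 9.61 and 9.49. Of the 20, 4 varied, beside 5.61% of all clusters: Bst2, Irf8, Irf4 and Flt3. The class II genes H2-Ab1 and H2-Aa read 9.88, 9.84 and 9.22 and 6.87, 7.50 and 7.04.

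Mast cell and basophil genes ran from the very top to background. Mcpt8, a basophil protease, read 16.002, 15.05 and 15.61, and Cpa3, the carboxypeptidase of mast cells and their precursors, 14.89, 13.99 and 15.30. Fcer1g, the signalling chain of Fc receptors, was high at 12.11, 11.65 and 11.98, and Hdc, the enzyme that makes histamine, read 10.76, 10.07 and 11.0035. Fcer1a, the IgE-binding chain, varied at 9.95, 7.26 and 9.08, and the tryptase Tpsb2 at 9.30, 6.77 and 8.78, both lowest on array 2. Near background were Mrgprb2, the receptor of mature mast cells for basic secretagogues, at 4.33, 3.97 and 4.01, the mucosal protease Mcpt1, and Tpsab1, a tryptase that C57BL/6 mice are known to lack. Of 25 mast cell genes, 4 were high, 14 middle and 7 near background. Of the 25, 8 varied, beside 5.61% of all clusters. Array 2 was the lowest for all 8, and 2.85% of all clusters varied with array 2 lowest. Without array 2, 0 of the 25 varied.

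Basophil and eosinophil genes spread further, and 8 of 17 varied, beside 5.61% of all clusters. Prss34, a basophil protease, read 14.35, 10.15 and 12.05. Gzmb, granzyme B, was highest on array 3 at 9.64, 8.37 and 12.35. The eosinophil granule genes Prg2 and Epx (major basic protein and eosinophil peroxidase) stood at 12.56, 9.03 and 7.48 and at 8.99, 6.26 and 5.86, each highest on array 1. Array 1 was the highest for 6 of the 8, and 2.45% of all clusters varied with array 1 highest. Ccr3 and Il5ra, receptors of mature eosinophils, were near background on all 3 arrays. Without array 1, 4 of the 17 varied.

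Megakaryocyte and platelet genes were mostly in the middle, with 4 of 23 high, 17 middle and 2 near background. Thbs1, thrombospondin, read 15.81, 13.30 and 11.20 (24.3-fold), and Pf4, platelet factor 4, 13.61, 11.95 and 13.54. Thbs1 is also made by monocytes. Its order of arrays resembled that of Ppbp, another platelet chemokine, at 10.18, 8.37 and 7.47, whereas Itgb3, the platelet integrin beta chain, was lowest on array 1 at 9.37, 10.63 and 10.82. Other platelet genes were spread over the range. Gp9 at 6.80, 6.38 and 6.63 and Vwf at 6.07, 5.94 and 6.41 lay near the middle of the arrays, and Gp6 was near background. Selp at 9.23, 8.77 and 10.03 and Itga2b at 9.02, 8.73 and 9.69 lay higher. Of the 23, 7 varied, beside 5.61% of all clusters, and 4 without array 1 or without array 2.

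Of 23 red cell genes measured, 0 were high, 13 middle and 10 near background, with a median percentile of 43.2. The share near background was close to the 42.6% of all clusters. Klf1 and Gata1, the master factors of red cell development, were just above the reference level, at 6.12, 5.49 and 5.73 and at 5.75, 5.55 and 5.78. The membrane proteins Slc4a1 (band 3), Ank1, Sptb and Epb42 were near background, as were the embryonic globins Hbb-bh1 and Hbb-y. The adult globin genes shared clusters and are not given. Tfrc, Car2, a carbonic anhydrase found in several blood lineages, at 9.08, 8.75 and 9.56, and Zfpm1, the partner protein of Gata1, at 8.44, 9.20 and 8.99, were the brightest. With keratin-associated and defensin genes as the reference in place of smell and taste receptors, 4 of the 23 were above the level.

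T and NK lineage genes were the lowest of the blood lists, with a median percentile of 25.1. Of 21 measured, 18 were near background, 2 middle and 1 high, against 42.6% of all clusters near background. The high one was Nkg7 at 13.98, 13.53 and 13.38, a granule membrane protein that also stands in the primary granule list. Cd3e, a chain of the T cell receptor complex, read 4.17, 4.16 and 4.17, and Cd4, Cd8a and Ncr1 were near background too. The T-box factor Eomes varied at 5.89, 7.21 and 5.40, highest on array 2. Of 15 B lineage genes, 0 were high, 9 middle and 6 near background, and with keratin-associated and defensin genes as the reference 1 of the 15 was above the level. Cd79b, a chain of the B cell receptor complex, read 8.59, 6.92 and 7.38, Il7r, the interleukin 7 receptor, 7.54, 5.50 and 6.79, and Ebf1, an early B factor, 6.98, 5.83 and 5.71, with array 1 the highest for each. Array 1 was the highest for 13 of the 15, beside 5773 of all 21072 clusters, and for 5 of the 6 that varied. Over all clusters 5.61% varied, and 2.45% varied with array 1 highest. Without array 1, 2 of the 15 varied.

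Genes of other tissues gave the floor. Of 25 genes for muscle, brain, liver, skin, kidney, lung, pancreas and testis, 21 were near background, 4 middle and 0 varied, and the median SD was 0.03. Albumin (Alb) read 4.81 on each array. Tnnt2, cardiac troponin T, was the brightest, at 5.94, 6.24 and 6.24. Stromal and endothelial genes were near background for 13 of 21, among them Cdh5, Kdr, Cxcl12, Lepr and Col3a1. The other 8 were middle, among them Tie1, Flt1, Col1a1 and Lpl. Pecam1, which blood cells also carry, was the brightest at 10.45, 10.05 and 10.44, and Pdgfrb, a receptor of pericytes, varied at 8.76, 9.91 and 10.20, lowest on array 1. Acta2 also varied, at 7.51, 6.64 and 6.47, highest on array 1.

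**Figure D4:**
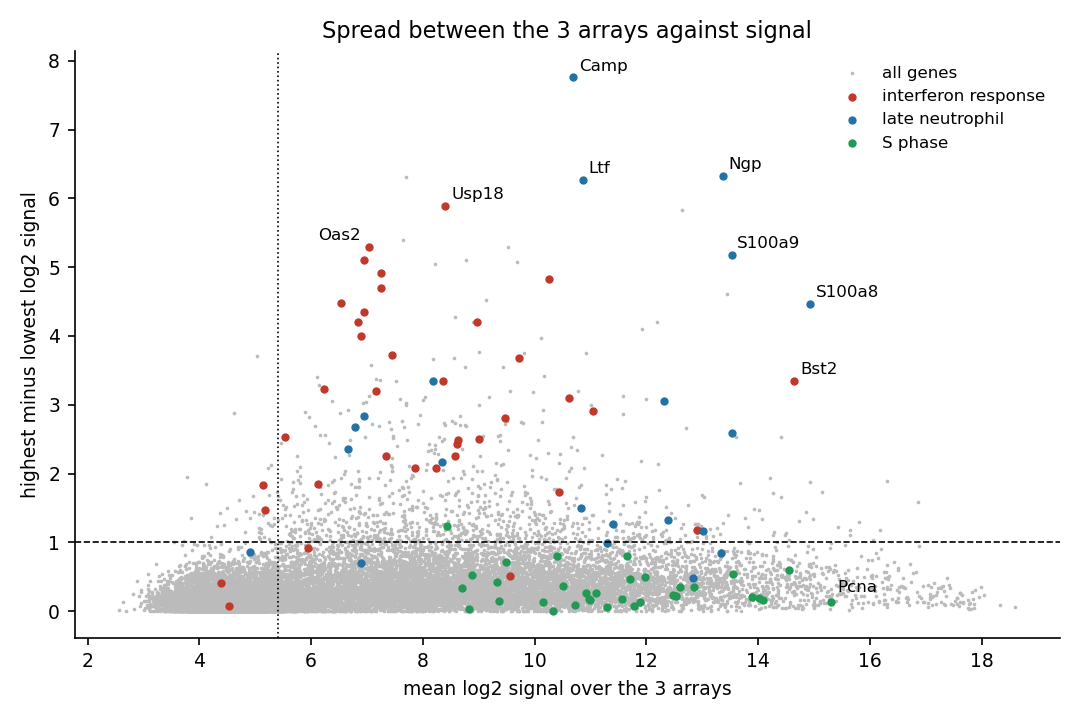
Highest minus lowest log2 signal of the 3 arrays (y axis) against mean log2 signal (x axis) for all genes in grey, with the interferon response, late neutrophil and S phase lists in colour. Interferon and late neutrophil genes fill the upper part, up to 7.76 for Camp, and replication genes such as Pcna lie along the bottom.

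The interferon response separated array 1 from arrays 2 and 3. Of 37 measured genes, 33 varied, beside 5.61% of all clusters, and array 1 was the highest for all 33. For 32 of them array 1 stood apart above the other arrays, a pattern met in 1.38% of all clusters. Array 1 was the highest for 37 of 37 as deposited and after quantile normalization, and for 36 of 37 after subtraction of each array's median. Over all 21072 clusters it was the highest for 5773, 6678 and 4162 in these settings. The median log2 signal of the list was 9.90, 6.60 and 6.34. The median difference was 2.85 between arrays 1 and 2 (7.21-fold) and 2.43 between arrays 1 and 3 (5.38-fold), while between arrays 2 and 3 it was 0.14. Without array 1, 0 of the 37 varied.

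Promoters of such genes often carry the interferon-stimulated response element, a pair of GAAA repeats bound by the STAT and IRF complex. The letters GAAANNGAAA were searched on both strands, overlapping matches included, in RefSeq promoters on GRCm38.p6 that run from 250 bases before to 50 after the start site. Of the 37 measured genes 27 had a promoter in that table, and 19 of the 27 (70.4%) held a match, beside 560 of 14009 array genes and 3.44% of all 32851 promoters. The 250 bases before the start are shown for the 3 members with the widest spread between arrays among those with a match, to let the repeats be seen, with the matching letters in capitals.
Isg15: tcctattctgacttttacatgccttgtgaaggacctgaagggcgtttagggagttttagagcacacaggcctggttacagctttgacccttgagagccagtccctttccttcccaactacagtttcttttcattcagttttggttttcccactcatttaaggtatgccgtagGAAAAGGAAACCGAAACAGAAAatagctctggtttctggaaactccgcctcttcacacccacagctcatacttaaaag
Oas1a: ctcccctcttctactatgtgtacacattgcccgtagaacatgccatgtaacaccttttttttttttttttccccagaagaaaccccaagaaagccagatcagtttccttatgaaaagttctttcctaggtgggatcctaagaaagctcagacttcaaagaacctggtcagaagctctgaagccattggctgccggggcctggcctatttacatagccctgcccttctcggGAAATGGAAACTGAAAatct
Ifit1: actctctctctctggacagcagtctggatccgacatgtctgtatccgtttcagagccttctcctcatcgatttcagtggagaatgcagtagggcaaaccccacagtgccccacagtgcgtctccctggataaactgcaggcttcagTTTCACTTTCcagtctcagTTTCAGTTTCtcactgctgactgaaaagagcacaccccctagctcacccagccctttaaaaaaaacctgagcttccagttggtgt
These are chr4:156200819-156201068 on the minus strand, chr5:120907526-120907775 on the minus strand and chr19:34640639-34640888 on the plus strand, each written 5′ to 3′ along the gene. Isg15 had 3 overlapping matches from position -78, Oas1a 2 overlapping matches from position -20, and Ifit1 2 separate matches on the opposite strand from position -104. A match describes these letters and does not show that a factor was bound.

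The 3 genes shown make Isg15, a ubiquitin-like tag, Oas1a, an enzyme that activates RNA decay, and Ifit1, which blocks translation of viral RNA. Isg15 read 10.22, 6.20 and 5.31 (30.1-fold), Oas1a 13.21, 8.38 and 9.19 (28.4-fold) and Ifit1 9.32, 5.46 and 4.84 (22.4-fold). All 3 were far higher on array 1, and Isg15 and Ifit1 were below the level of 5.40 on array 3. Usp18, the protease that removes Isg15 and damps the receptor, had the widest spread of the list at 12.23, 6.65 and 6.34 (59.2-fold). Oas2, Rtp4 and Zbp1, further induced genes, read 10.36, 5.67 and 5.07, 10.18, 5.59 and 5.08, and 9.81, 5.46 and 5.60.

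The order also held for genes that carry the signal. Irf7, the factor that amplifies the response, read 9.28, 6.10 and 5.28, Stat2 10.35, 7.85 and 8.82, and Irf9, its DNA-binding partner, 9.06, 7.51 and 6.98. The RNA sensors Ddx58 (RIG-I) and Ifih1 (MDA5) stood at 11.91, 9.06 and 8.22 and at 10.11, 8.07 and 7.68. Bst2, tetherin, which holds virus at the membrane, was high even where lowest, at 16.55, 13.21 and 14.19, and Ifitm3, which blocks viral entry, read 13.40, 12.22 and 13.08. Ly6e and Mx2 were highest on array 1 without passing 2-fold, at 9.86, 9.35 and 9.49 and at 6.51, 5.59 and 5.72. Ifi44l and Cxcl10, also interferon targets, were near background on each array at 4.58, 4.51 and 4.51 and at 4.66, 4.26 and 4.26.

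The class I antigen presentation genes, many of which interferon also raises, had the same array at the top. Of 12 measured, 6 were high, 6 middle and 0 near background. Of the 12, 7 varied, beside 5.61% of all clusters. Array 1 was the highest for all 7, and 2.45% of all clusters varied with array 1 highest. H2-K1 and H2-D1, the class I heavy chains, read 13.44, 12.43 and 12.50 and 13.66, 12.60 and 12.93, and B2m, their light chain, 16.69, 15.79 and 16.10. The peptide transporter Tap1 stood at 10.81, 9.23 and 9.28, and the immunoproteasome subunit Psmb9 at 10.18, 8.73 and 8.65. Calr and Pdia3, chaperones of the endoplasmic reticulum that serve many proteins, did not vary, at 14.90, 14.83 and 15.20 and at 14.65, 14.57 and 14.65. The median difference was 1.03 between arrays 1 and 2 and 0.84 between arrays 1 and 3. Without array 1, 0 of the 12 varied, and 5 varied after either rescaling.

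Inflammatory genes did not share this order. Of 26 measured, 1 was high, 19 middle and 6 near background. Of the 26, 9 varied, 4 with array 1 highest, beside 5.61% and 2.45% of all clusters. Ccl2, which draws monocytes, read 10.99, 8.72 and 8.43, while Ccl3 was highest on array 3 at 9.84, 10.06 and 11.77. Tnf was steady at 8.72, 8.75 and 8.92, and Il1b, interleukin 1 beta, read 6.09, 5.84 and 6.30. Socs3, Cxcl1 and Cxcl2, which acute inflammatory signals induce, were near background. Without array 2, 3 of the 26 varied.

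**Figure D5:**
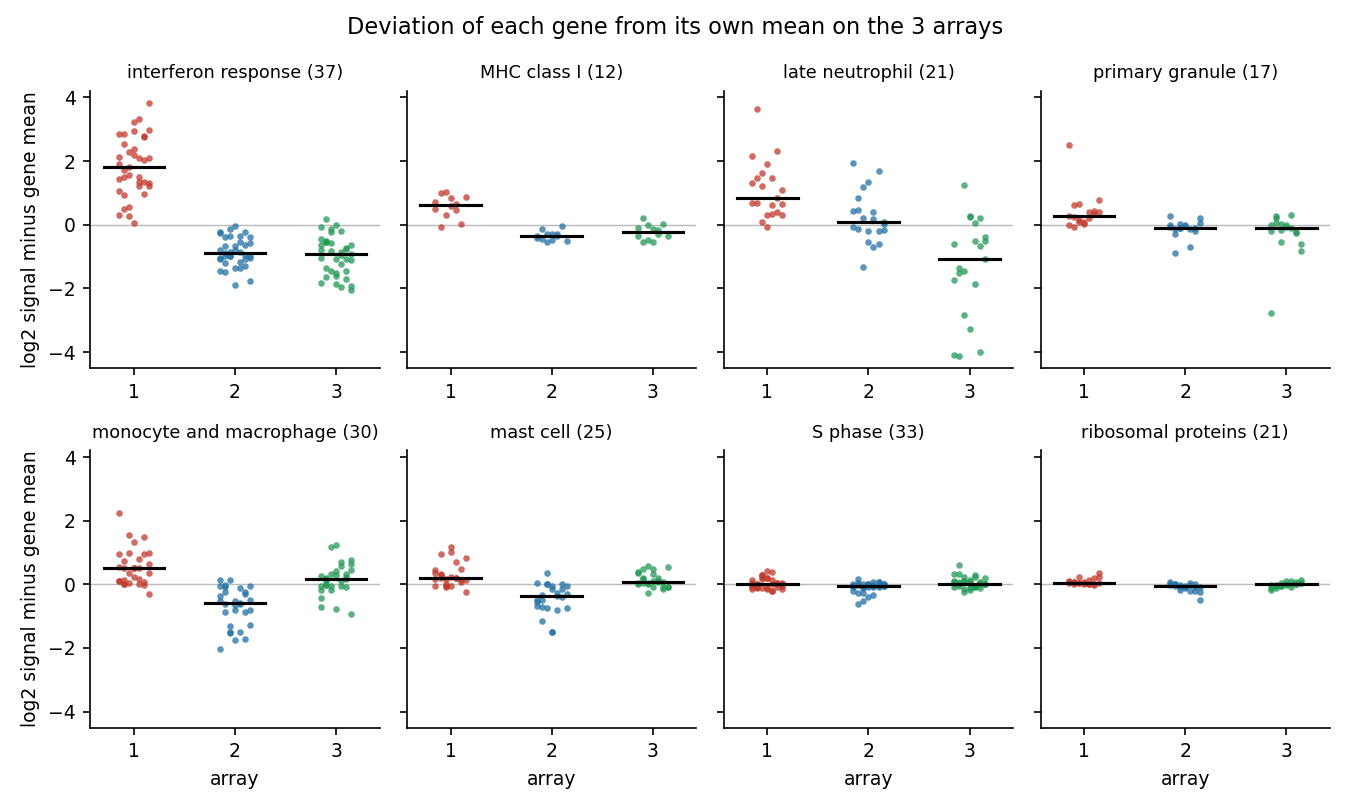
Log2 signal on each array minus the gene's own mean over the 3 arrays (y axis) for 8 lists, with 1 point per gene and black bars at the median. The medians of interferon and MHC class I genes sit above 0 on array 1, those of late neutrophil genes below 0 on array 3, those of monocyte and mast cell genes below 0 on array 2, and S phase and ribosomal protein genes stay near 0 on all.

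The array order therefore differed by list. Array 1 was the highest for interferon and class I genes, array 3 the lowest for late neutrophil genes, and array 2 the lowest for monocyte and mast cell genes. A top position of array 1 was not particular to the interferon and class I lists. It was also the highest for 18 of 21 late neutrophil, 15 of 17 primary granule, 13 of 15 B lineage and 19 of 30 monocyte genes. Among stem cell regulators it was the highest for 4 of 21, and over all 21072 clusters for 5773. On quantile normalization array 3 was still the lowest for 16 of 21 late neutrophil genes, and array 2 for 24 of 30 monocyte and 17 of 25 mast cell genes. Over all 21072 clusters array 3 was then the lowest for 7857 and array 2 for 6267. These low positions were not particular to the lists named either. On the same scaling array 2 was the lowest for 16 of 23 megakaryocyte, 13 of 18 glycolysis and 13 of 25 cytokine receptor genes. Array 3 was the lowest for 12 of 17 primary granule, 11 of 20 myeloid transcription factor and 10 of 15 B lineage genes. What moved with these gene lists, in the cells or in the handling, was not tested. On the same 3 arrays none of the ribosomal protein genes or translation factors varied. The median SD was 0.08 in each list, and the widest ranges were 0.85 and 0.68.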

How the data were processed

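The deposited table holds log2 signals per cluster, which the authors computed from probe intensities by RMA, and the submitters' processing notes name Affymetrix Expression Console for that step. No version of it is given in the sources used here. Identifiers of the clusters look like those of whole-transcript arrays later than the Mouse Exon 1.0 ST that the labels name. Values were used as deposited, with 0 columns unmapped, and the 6 GATA2 arrays were not used here.

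Clusters with 1 symbol numbered 18992, with several 1390 and with none 690, and only those with 1 symbol were named. Gene identifiers of 18236 matched RefSeq (GRCm38.p6), which updated 418 symbols. For 171 symbols with several clusters, the brightest was used.

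Means, SDs, ranges and percentiles over the 3 arrays were computed in Python 3.11.15 with pandas 2.3.3 and numpy 2.4.6, and tested on simulated data. With 1 group no test was run. The genes named are some of the 20 brightest and 20 most variable clusters, and, per list, of the 6 highest, 4 most variable and 4 lowest members, beside sort markers and some further list members that describe a list's role. The members and lists were chosen with earlier results of these data known. Alternatives covered the reference level and family, scaling, the fold threshold, tied values, the choice of cluster and leaving out each array. Of the clusters, 16173 held 3 distinct values, 3632 held 2 and 1267 held 1, and tied values count as neither highest nor lowest.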

Additional observations from a re-analysis of the deposited data

How the results depend on the processing

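The count of clusters above the reference level, 12099, ran from 9417 with keratin-associated and defensin genes as the reference to 13193 with the 90th percentile. That of list members above it, 557, ran from 469 to 589 under the same settings. With keratin-associated and defensin genes as the reference, 1 of 15 B lineage, 9 of 20 dendritic, 13 of 26 inflammation, 5 of 21 stromal and endothelial and 0 of 25 other-tissue genes lay above it, where 9, 14, 20, 8 and 4 had. The count of varying clusters, 1183, was 1137 after subtraction of each array's median, 1095 after quantile normalization, 1162 among clusters with 3 distinct values and 1130 among clusters above the reference level. It was 3544 at a 1.5-fold threshold, and 560 to 705 with 1 array left out, where only 2 arrays remain to set a range. Of the list counts recomputed, 498 stayed within 1.5 times of the main count and 78 did not, 22 of them at the 1.5-fold threshold and 13, 16 and 11 without arrays 1, 2 and 3. No paired analysis was possible because only 1 group was used. Genes near background cannot be told from absent ones here, and with 3 arrays an SD is itself imprecise.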

Other observations

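Gene families outside the lists were read by symbol, and they were chosen after their values were seen. Over all clusters 5.61% varied, and 2.45% varied with array 1 highest. The interferon genes themselves did not vary. Of 18 measured, 15 were near background and 3 middle, with Ifnb1 at 4.83, 4.86 and 4.93 on arrays 1, 2 and 3 and Ifng, made by T and NK cells, at 3.97, 3.91 and 4.03. The brightest was Ifnl3 at 6.22, 6.01 and 6.17. Families that interferon is known to raise had array 1 at the top, as the listed interferon genes did. Of 7 Ifi200 genes, which include DNA sensors, 6 varied, each highest on array 1, with Ifi209 at 11.12, 5.73 and 6.09 (42.0-fold) and Ifi204 at 11.66, 7.46 and 7.58. Aim2, the inflammasome sensor of the family, read 9.08, 8.35 and 8.80 and did not vary by over 2-fold. Of 9 Schlafen genes, 7 varied, again each highest on array 1, with Slfn5 at 8.34, 4.95 and 5.04. The guanylate binding proteins, which attack vacuoles that hold microbes, had 7 of 7 vary with array 1 highest, and 3 of these 7 also stand in the interferon list.

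Wide spreads were also found in genes and families that lie mostly outside the lists. Of all clusters, 5.61% varied: 2.45% with array 1 highest, 1.10% with array 2 and 2.02% with array 3. By the lowest array, 2.85% varied with array 2 and 2.05% with array 3 at the bottom. Arg1, the arginase of alternatively activated macrophages, read 11.69, 6.02 and 5.38 (79.0-fold), high on array 1 and close to the reference level on array 3. Of 18 membrane-spanning 4A genes, many of them made by monocytes, 10 varied, 9 with array 1 highest and 9 with array 2 lowest, and Ms4a6c read 13.98, 11.32 and 12.83. The 4 stefin A genes, protease inhibitors of neutrophils, all varied with array 3 lowest (Stfa2l1 is also in the late neutrophil list), and Stfa1 read 14.40, 14.48 and 11.95. The C-type lectins of the Clec4 group moved both ways: Clec4b2 stood at 9.86, 8.48 and 6.19 and Clec4n (dectin-2) at 8.42, 8.00 and 11.12. Of 20 C-C chemokines 8 varied, 5 with array 1 highest, 1 with array 2 and 2 with array 3. Ccl8 read 8.21, 4.92 and 5.27, Ccl24 9.10, 10.02 and 8.17, and Ccl9 10.31, 8.74 and 10.79.

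Small non-coding RNA varied more often than protein-coding genes. Of 65 clusters annotated as snoRNA 31 (47.7%) varied, and of 575 miRNA clusters 95 (16.5%), beside 4.80% of 17286 protein-coding clusters. Among the 31 snoRNA clusters array 2 was the highest for 18 and array 3 the lowest for 21. Among the 95 miRNA clusters array 2 was the highest for 52 and array 3 the lowest for 67. Of all clusters, 1.10% varied with array 2 highest and 2.05% with array 3 lowest. Others went the opposite way: Snord49b read 8.17, 5.73 and 10.78 and the Y RNA Rny3 13.31, 9.39 and 15.21, both highest on array 3. The mitochondrial gene ND2 read 14.21, 13.23 and 15.77, while COX1, of the same genome, was within 0.21 on the 3 arrays.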
